A study of Zea mays with 10 samples.

Results

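Stem RNA of 2 inbred maize lines was compared, the Flint-Dent line F7033 and the Flint line F2. The rule took the 2 arrays of each line, 4 of the 10 arrays of a survey of 5 lines, and kept every probe set whose log2 value reached 4 on no fewer than 2 of those 4 arrays. A probe set is a group of short probes on the array that together report 1 transcript. Control probe sets were left out, and 10559 of 17734 probe sets were kept. They covered 779 of the 1108 genes that the probe annotation names, and these 779 genes are described here in both directions. The selection used the brightness of a probe set and not its difference between the lines.

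F7033 is labelled as a yellow-grained line of Flint-Dent type from (LorenaXF252)XF252, and F2 as a line with Flint grain from lacaune. An inbred line breeds nearly true after repeated selfing, and Flint and Dent are the 2 main grain types of temperate maize. Both lines were untreated, and every array held stem RNA of 1 pool of 5 plants. Nothing in the labels tells whether the pools of a line came from separate plots, and the p-values therefore reflect only how far these pools varied, a variation that may be technical. Each grain type is represented here by 1 line, and line and grain type cannot be told apart. The study's stated interest is what makes the stem wall of maize lines more or less degradable.

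The maize stem carries water and sugar in vascular bundles that are stiffened by cellulose, xylan and lignin. Lignin is built from phenylpropanoid monomers and is the wall component that most limits digestion by ruminants. Aquaporins are channels that let water cross the plasma membrane (PIP) or the vacuolar membrane (TIP), and some related channels carry other small molecules. The green outer stem also photosynthesises, and young maize tissue stores benzoxazinoids, defence compounds that start from indole.

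Values are log2 GCRMA signals, given for array 1 and then array 2 of a line, and a difference is F7033 minus F2 with its standard error. A probe set was called higher or lower at an adjusted p under 0.05 in the limma fit to all 10 arrays. Where the mean of 1 line lay under log2 4, that line was set to 4 and the fold is given as at least that large. Arrays of the same line correlated at 0.996 in F7033 and 0.997 in F2 across all 17555 probe sets other than controls, and arrays of different lines at 0.947 to 0.95. These correlations run across probe sets of an array, and probe sets do not count as replicates.

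F7033 and F2 differed in many transcripts. Of the 10559 kept probe sets, 4100 (38.8%) were called, 1803 (17.1%) higher and 2297 (21.8%) lower in F7033. The fold among the called was modest, with a median of 1.94, and 1920 reached 2-fold. The count was 2573 without F2 replicate 2 and 2644 without F7033 replicate 1. Among the 779 genes with an annotation, 321 (41.2%) were called, 160 (20.5%) higher and 161 (20.7%) lower. Their median difference was -0.07, and that of all kept probe sets was -0.11. Non-overlapping arrays were found for 622 of the 779 genes and for 78.8% of the kept probe sets, so a lack of overlap is common in this comparison. Of the 160 higher genes, 26 were under 4 on both F2 arrays. Of the 161 lower genes, 17 were under 4 on both F7033 arrays. Such genes passed the brightness filter only through the line where they are high. List counts that hold them are descriptive and are not set against the share over all genes. In the lists below such genes include expB7, pox2, PPCK1, pcna2, hox1a, m31, HP3, crr1 and vp1, beside those named with their lists.

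**Figure D1:**
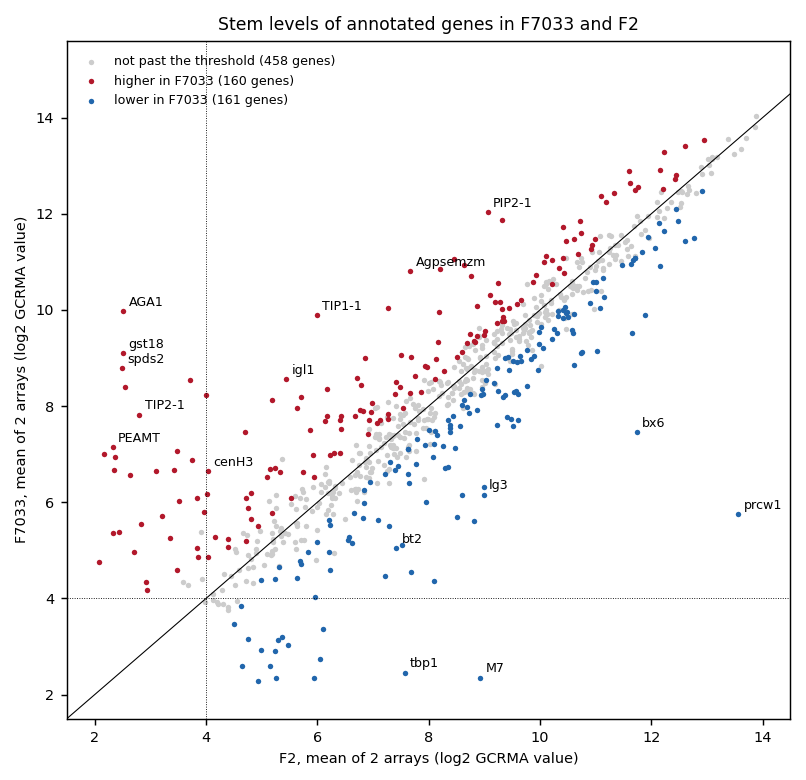
Mean log2 GCRMA value of each of the 779 annotated genes in F2 (horizontal axis) and F7033 (vertical axis), with genes higher in F7033 in red, lower in blue and those not past the threshold in grey. Most genes lie near the diagonal, and prcw1, M7 and AGA1 lie far from it; dotted lines mark log2 4.

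The RNA behind the arrays was not alike. The labels give 60 and 100 µg of total RNA for the F7033 pools and 80 and 20 µg for the F2 pools. The array's actin control probe sets read 4.87 and 4.86 higher at the 3′ end than at the 5′ end in F7033, and 3.84 and 2.8 higher in F2, on the log2 scale. Other bright maize controls differed less between the lines. The ef1a control gave 1.94 and 1.88 in F7033 and 1.76 and 1.59 in F2. The Cyph control gave 0.58 and 0.56 in F7033 and 0.18 and 0.19 in F2. The part of these gaps in the results below was not tested. Stem secondary wall markers were bright on all 4 arrays, between 10.45 and 12.3. All 5 pollen markers were under 4 on all 4 arrays, as were 5 of 8 endosperm markers and 1 of 2 root markers. The summed linear signal of the root markers was 53 and 63.2 in F7033 and 15.8 and 14.1 in F2. With zrp4 at the floor, these sums rest mostly on the dim gene ys1. It read 5.58 and 5.86 in F7033 and 3.25 and 3.15 in F2, and passed the brightness filter only through F7033. The part of root tissue in this difference was not tested.

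The largest difference among the annotated genes was in a wall protein gene. The transcript of prcw1, which encodes a proline-rich cell wall protein, read 6.27 and 5.23 in F7033 and 13.46 and 13.67 in F2. F2 was thus near the top of the scale and F7033 far below it, by -7.81 ± 0.28 or 225-fold (adjusted p = 2.9e-07). The other probe set of prcw1 read 5.02 and 4.64 in F7033 and 14.14 and 14.29 in F2. The other lines had means of 13.23 to 13.37 for the first probe set, close to F2. Among the loosening proteins of the wall, the beta-expansin expB7 read 6.91 and 6.43 in F7033 and 2.25 and 2.43 in F2, at least 6.35-fold higher in F7033 (adjusted p = 0.000135). The xyloglucan endotransglycosylase xet1 read 11.15 and 11.83 in F7033 and 12.04 and 11.88 in F2 and did not pass (adjusted p = 0.0926). The expansins EXPA5, expB8, expa1 and expB6 did not pass, and their standard errors were 0.93 to 1.44. These errors pool the spread of all 5 lines. The F98902 arrays lay far apart, at 3.87 and 8.98 for EXPA5 and 6.88 and 11.25 for expa1. They read 6.64 and 10.2 for expB8 and 2.28 and 5.44 for expB6. For expa1, F7033 read 10.59 and 10.49 and F2 9.55 and 9.96, while for expB8 F2 itself read 6.11 and 7.95. Of the 15 annotated genes for wall proteins, expansins and xyloglucan endotransglycosylases, 7 were bright enough to test, 1 was higher and 1 lower. A fit to only the 4 arrays gave 2 higher and 1 lower, and array weights gave 1 higher and 2 lower.

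Of 5 annotated genes of lignin monomers, 4 were bright enough to test and 1 of these was called (25%, against 41.2% over all tested genes). The gene left out, cncr2, read 2.55 to 2.59 on the 4 arrays, at the floor in both lines. cncr1, which encodes cinnamoyl-CoA reductase, the enzyme that opens the lignin branch, read 12.04 and 12.46 in F7033 and 11.11 and 11.25 in F2. It was 2.1-fold higher in F7033 (1.07 ± 0.19, adjusted p = 0.00253), and its arrays did not overlap. The phenylalanine ammonia-lyase gene pal3, at the entry of the pathway, read 13.15 and 13.11 in F7033 and 13.04 and 13.15 in F2. Its difference of 0.04 had a 95% interval of -0.17 to 0.25. bm1, the cinnamyl alcohol dehydrogenase gene known from a brown midrib mutant, differed by -0.16 (interval -0.46 to 0.13). For 4CL, the 4-coumarate CoA ligase gene, the difference was 0.06 (interval -0.4 to 0.52). The median of the 4 genes was 0.05, against -0.07 over all genes.

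Of 3 tested genes for laccases and class III peroxidases, enzymes that can couple lignin monomers, 1 was higher and 1 lower. PER42, a class III peroxidase gene, read 9.33 and 8.69 in F7033 and 6.48 and 7.23 in F2, 4.47-fold higher (adjusted p = 0.00347). The peroxidase gene pox2 read 2.34 and 2.37 in F7033 and 6.49 and 5.4 in F2, at least 3.84-fold lower (adjusted p = 3.97e-05). F2 was the only line of the survey in which the mean of pox2 reached 4. The laccase gene LAC1 differed by 0.28 ± 0.25 and did not pass (adjusted p = 0.397).

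Few cellulose synthase genes were called. Of 14 tested genes for cellulose synthases and COBRA-like wall proteins, 12 did not pass, and the median difference was -0.01. The called share was 14.3%, against 41.2% over all tested genes, where the median was -0.07. A fit to only the 4 arrays gave 2 higher and 2 lower, and array weights gave 2 higher and 1 lower. Without a filter on dim probe sets, 0 were higher and 1 was lower. CesA-3 read 8.36 and 8.35 in F7033 and 8.9 and 9.02 in F2, 1.52-fold lower (adjusted p = 0.00275). cesa10, a synthase of the secondary wall, read 11.35 and 11.6 in F7033 and 10.57 and 10.68 in F2, 1.8-fold higher (adjusted p = 0.0328). That call was lost without any 1 of the 4 arrays (adjusted p = 0.0764 to 0.16). The other secondary wall synthases did not pass: cesa11 differed by 0.63 (adjusted p = 0.102) and CesA12 by 0.31 (adjusted p = 0.245). The largest difference of the list was that of CesA-8, at 5.96 and 6.82 in F7033 and 7.25 and 7.34 in F2, which did not pass (-0.9 ± 0.48, interval -1.99 to 0.19). CesA-5 differed by -0.03 with an interval of -0.34 to 0.27, and CesA-7 by 0.14 with an interval of -0.25 to 0.53.

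Of 4 genes for nucleotide sugars and hemicellulose, 1 was called (25%, against 41.2% over all tested genes). It was pglcat6, at 9.6 and 9.62 in F7033 and 10.31 and 10.21 in F2 (1.57-fold lower, adjusted p = 0.00134). Its relative pglcat8 differed by 0.33 ± 0.22 and did not pass by its brightest probe set (adjusted p = 0.262). Of its other probe sets, 1 was 1.55-fold higher (adjusted p = 0.0422) and 1 differed by 0.05 (adjusted p = 0.895). RGP, which encodes a reversibly glycosylated protein, differed by -0.69 (adjusted p = 0.103), and UGlcAE by -1.34 (adjusted p = 0.0577). The dimmer probe set of UGlcAE was called, at 3.39 and 4.29 in F7033 and 5.94 and 6.84 in F2 (at least 5.24-fold lower, adjusted p = 0.0117).

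**Figure D2:**
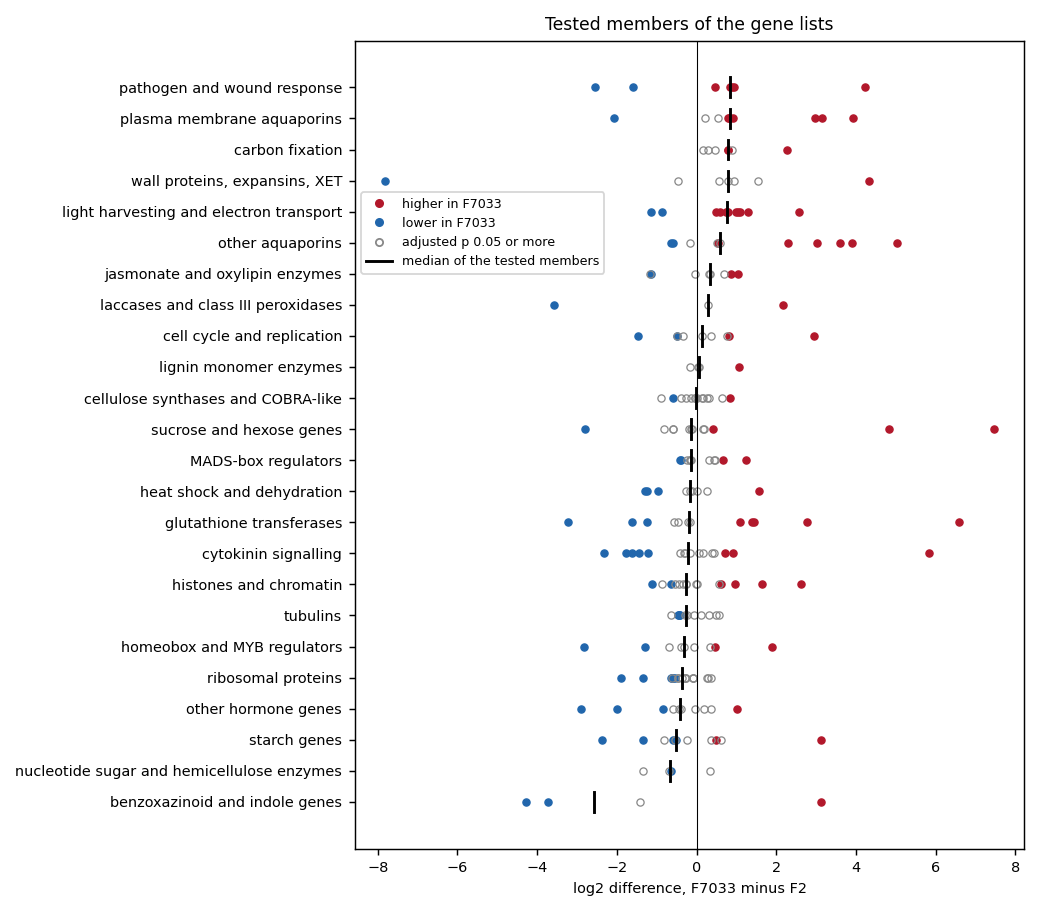
Log2 difference, F7033 minus F2, of every tested member of the 24 gene lists, with filled points for called genes (red higher, blue lower), open points for the others and a black bar at the median of each list. Aquaporin and photosynthesis genes lie mostly to the right of 0, while members of the cellulose synthase list cluster near it.

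Many aquaporin genes were higher in F7033. Of 28 annotated aquaporin genes, 21 were tested, 13 were higher, 3 lower and 5 did not pass. Of the 13 higher genes, 5 (PIP2-2, PIP2-6, TIP2-1, TIP4-1 and TIP4-4) were under 4 on both F2 arrays and so passed the brightness filter only through F7033, where they are high. The same held for PIP2-5 through F2 among the lower genes. The counts therefore describe these genes and are not set against the share over all genes. In bulk stem, fewer cells of a type and less RNA per cell cannot be told apart, for these and all later genes.

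Among the plasma membrane channels, PIP2-1 read 12.02 and 12.04 in F7033 and 8.85 and 9.27 in F2, 7.84-fold higher in F7033 (2.97 ± 0.21, adjusted p = 1.46e-05). PIP2-2 read 6.72 and 7.05 in F7033 and 3.63 and 3.84 in F2, at least 7.37-fold higher (adjusted p = 0.000622). PIP2-6 read 6.13 and 7 in F7033 and 2.71 and 2.57 in F2, at least 5.93-fold higher (adjusted p = 1.12e-05). These members of the PIP2 group, the more active water channels of the family, were well separated between the lines. The brightest channel, PIP1-2, differed less, at 12.5 and 12.6 in F7033 and 11.89 and 11.66 in F2 (1.72-fold, adjusted p = 0.0102). It missed the threshold without F7033 replicate 2 (adjusted p = 0.0629) and without F2 replicate 2 (adjusted p = 0.0781). All 4 probe sets of PIP1-3 were higher in F7033, and the brightest read 10.98 and 11.08 against 10.21 and 10.2.

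The calls of PIP2-3 and PIP1-5 were weaker. PIP2-3 was 1.88-fold higher (adjusted p = 0.0157) but missed the threshold without any 1 of the 4 arrays (adjusted p = 0.0634 to 0.0849). PIP1-5 was 1.79-fold higher (adjusted p = 0.0294), and it missed the threshold without F7033 replicate 2 (adjusted p = 0.159) and without F2 replicate 1 (adjusted p = 0.18). The PIP1-5 call was also lost in the fit to only the 4 arrays and without a filter on dim probe sets. PIP1-1 read 12 and 11.93 in F7033 and 11.82 and 11.67 in F2 and did not pass (interval -0.1 to 0.54). PIP2-4 did not pass either (adjusted p = 0.205). PIP2-5 ran the other way, at 2.93 on both F7033 arrays and 5.12 and 4.86 in F2, at least 1.99-fold lower (adjusted p = 3.11e-05). F2 was the only line with a PIP2-5 mean of 4 or more.

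Tonoplast channels differed most. TIP1-1, a vacuolar water channel, read 9.66 and 10.12 in F7033 and 5.97 and 6.02 in F2, 14.9-fold higher in F7033 (3.9 ± 0.2, adjusted p = 2.26e-06). TIP2-1 read 7.88 and 7.76 in F7033 and 2.74 and 2.87 in F2, at least 14.1-fold higher (adjusted p = 2.76e-06). For both genes the other lines were bright, with means of 8.72 to 10.06 for TIP1-1 and 8.24 to 8.58 for TIP2-1, and F2 was the dim line. TIP4-1 had another pattern, since F7033 was the bright line: 7.59 and 6.56 in F7033, 3.5 and 3.44 in F2, and means of 3.03 to 4.34 in the other lines. Against F2 it was at least 8.41-fold higher in F7033 (adjusted p = 7.21e-05), and TIP4-4 at least 2.55-fold (adjusted p = 0.000239).

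The NIP2 group, whose members carry silicon in rice, split. NIP2-3 read 11.02 and 10.84 in F7033 and 8.37 and 8.89 in F2, 4.94-fold higher (adjusted p = 2.06e-05). NIP2-1 read 9.17 and 8.94 in F7033 and 9.76 and 9.51 in F2, 1.5-fold lower (adjusted p = 0.0364). That call was lost without any 1 of the 4 arrays (adjusted p = 0.0671 to 0.198). The other NIP2-1 probe set read 7.81 and 8.05 in F7033 and 9.18 and 8.89 in F2, 2.15-fold lower (adjusted p = 0.00654). SIP1-1, a small channel, was 1.45-fold higher (adjusted p = 0.0197). It missed the threshold without F7033 replicate 1 (adjusted p = 0.12) and without F2 replicate 2 (adjusted p = 0.146). SIP2-1 was 1.54-fold lower (adjusted p = 0.02), and the call did not survive the loss of any 1 of the 4 arrays (adjusted p = 0.063 to 0.106).

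**Figure D3:**
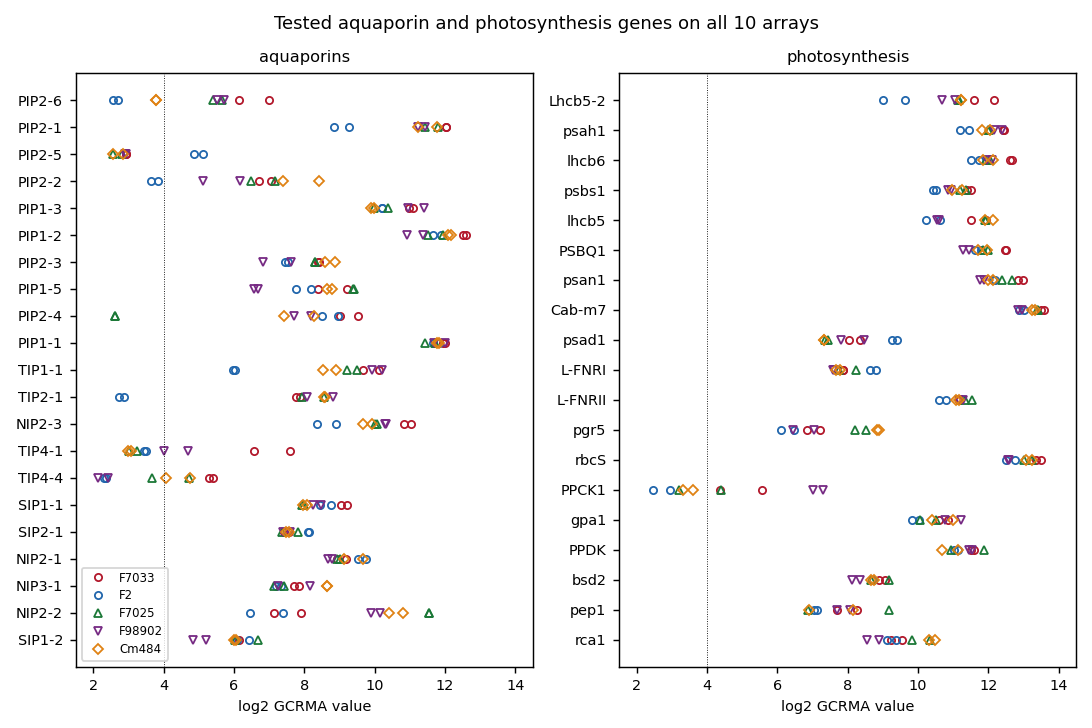
Log2 GCRMA value of every tested aquaporin gene (left) and photosynthesis gene (right) on all 10 arrays, with 2 points for each line and a dotted line at log2 4. For TIP1-1, TIP2-1 and PIP2-1 the F2 points lie apart from those of the other lines, while for TIP4-1 the F7033 points do.

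Photosynthesis genes were mostly higher in F7033. All 12 tested genes of light harvesting and electron transport were called, 10 higher and 2 lower, with a median of 0.77. Over all tested genes 41.2% were called and 20.5% were higher. Lhcb5-2, an antenna protein gene of photosystem II, read 11.59 and 12.17 in F7033 and 8.99 and 9.63 in F2, 5.95-fold higher (adjusted p = 8.03e-05). The antenna gene lhcb6 read 12.62 and 12.67 in F7033 and 11.5 and 11.74 in F2 (2.04-fold, adjusted p = 0.00039), and all 3 of its probe sets were higher. psah1, a photosystem I subunit gene, read 12.42 and 12.44 in F7033 and 11.46 and 11.2 in F2, 2.14-fold higher (adjusted p = 0.000294). psbs1, the gene of the photosystem II protein that triggers heat dissipation of excess light, was 1.97-fold higher (adjusted p = 0.000451). The remaining higher genes, lhcb5, PSBQ1, psan1, Cab-m7, L-FNRII and pgr5, had folds of 1.39 to 2.45. For pgr5 the probe sets differed in size. The brighter one was 1.67-fold higher and lost its call without any 1 of the 4 arrays (adjusted p = 0.0603 to 0.216), while the other read 7.49 and 7.75 in F7033 and 3.84 and 4 in F2, at least 12.3-fold higher (adjusted p = 1.22e-05). L-FNRII lost its call without F7033 replicate 1 (adjusted p = 0.0561), F7033 replicate 2 (adjusted p = 0.0536) or F2 replicate 1 (adjusted p = 0.0859).

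The exceptions were both at the reducing side of photosystem I. psad1, which encodes its ferredoxin-docking subunit, read 8.03 and 8.35 in F7033 and 9.26 and 9.4 in F2, 2.2-fold lower (adjusted p = 0.00366). L-FNRI, a leaf ferredoxin-NADP reductase gene, read 7.85 and 7.87 in F7033 and 8.63 and 8.8 in F2, 1.81-fold lower (adjusted p = 0.00488), while L-FNRII was 1.39-fold higher. In psad1 and L-FNRI the other lines read below F2, with means of 7.32 to 8.14.

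Of 7 tested carbon fixation genes, 3 were higher and none was lower. rbcS, the small subunit gene of Rubisco, read 13.49 and 13.34 in F7033 and 12.49 and 12.74 in F2, 1.74-fold higher (adjusted p = 0.00169). PPCK1, which encodes a kinase of phosphoenolpyruvate carboxylase, read 4.37 and 5.55 in F7033 and 2.93 and 2.46 in F2, at least 1.94-fold higher (adjusted p = 0.00513). gpa1 was 1.74-fold higher (adjusted p = 0.0319), a call lost without any 1 of the 4 arrays (adjusted p = 0.0715 to 0.16). The genes of the C4 cycle did not pass: PPDK differed by 0.46 ± 0.27 by its brightest probe set (adjusted p = 0.22) and by -0.56 by its dimmest (adjusted p = 0.0887), and pep1 by 0.9 ± 0.68 (adjusted p = 0.326).

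Leaf markers moved with these genes. The leaf marker list holds rbcS, Cab-m7, PPDK and pep1, of which 2 of 4 were higher in F7033 and none was under log2 4. Its summed linear signal was 26300 and 25600 in F7033 and 15500 and 17500 in F2. Since these markers are photosynthesis genes themselves, the part of leaf tissue in the difference was not tested.

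Of 12 tested genes of sucrose and hexose use, 3 were higher and 1 lower. Among the higher genes, AGA1 and ivr2 were under 4 on both F2 arrays and passed the brightness filter only through F7033. AGA1, which encodes an alkaline alpha-galactosidase that releases galactose from raffinose sugars, read 9.93 and 10.02 in F7033 and 2.49 and 2.54 in F2. It was at least 62.9-fold higher in F7033 (adjusted p = 1.38e-08). The gene ivr2 of a soluble acid invertase, which splits sucrose in the vacuole, read 8.32 and 8.76 in F7033 and 3.72 and 3.7 in F2, at least 23.2-fold higher (adjusted p = 1.74e-06). In the opposite direction, the fructokinase gene frk1 read 5.5 and 5.89 in F7033 and 8.41 and 8.59 in F2, 6.98-fold lower (adjusted p = 7.96e-05). For frk1, F7033 was the low line, since the other lines had means of 9.02 to 9.72. The sucrose synthase gene sh1 was 1.33-fold higher (adjusted p = 0.036), a call lost without any 1 of the 4 arrays (adjusted p = 0.0971 to 0.165). The sucrose synthase gene sus1 read 12.43 and 12.58 in F7033 and 12.69 and 12.68 in F2 and did not pass (interval -0.54 to 0.18), nor did the sucrose transporter gene sut1 (interval -0.37 to 0.73).

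In starch synthesis, 2 of 11 tested genes were higher and 4 lower, with a median of -0.51. The called share was 54.5%, and over all tested genes it was 41.2%, with a median of -0.07. A pair of genes for the small subunit of ADP-glucose pyrophosphorylase, the enzyme that makes the starch precursor, ran in opposite directions. Agpsemzm read 10.74 and 10.86 in F7033 and 7.79 and 7.54 in F2, 8.76-fold higher (3.13 ± 0.17, adjusted p = 2.94e-06). bt2, brittle2, read 5.03 and 5.05 in F7033 and 7.34 and 7.49 in F2, 5.19-fold lower (adjusted p = 2.69e-05). For both genes the means of the other lines lay nearer to F7033, at 9.73 to 10.36 for Agpsemzm and 4.5 to 5.75 for bt2. The starch synthase gene ss1 read 7.08 and 7.17 in F7033 and 8.54 and 8.39 in F2, 2.54-fold lower (adjusted p = 0.000451). The calls of zSSIIb, sbe1 and iso2 had adjusted p between 0.0437 and 0.0493, and all were lost without any 1 of the 4 arrays (adjusted p = 0.0637 to 0.271). bt2 is also 1 of the 8 endosperm markers, whose summed linear signal was 128 and 159 in F7033 and 286 and 350 in F2, and the part of seed-type transcripts in this difference was not tested. The split of the list was 3 higher and 2 lower when the medians of the arrays were set equal, 3 higher and 6 lower in a fit to only the 4 arrays, and 4 higher and 6 lower with array weights.

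Genes around benzoxazinoids and indole differed in both directions, 1 higher and 2 lower of 4 tested (75% called, against 41.2% over all tested genes). bx6, which encodes a dioxygenase late in benzoxazinoid synthesis, read 7.42 and 7.5 in F7033 and 11.72 and 11.76 in F2, 19.4-fold lower (-4.28 ± 0.2, adjusted p = 1.31e-06). Its other probe set was 13.3-fold lower, and the other lines had means of 8.41 to 10.3 for the first. igl1, which encodes indole-3-glycerol phosphate lyase and makes free indole, read 8.73 and 8.39 in F7033 and 5.43 and 5.45 in F2, 8.71-fold higher (adjusted p = 1.73e-06). bx1 encodes a related lyase that feeds the benzoxazinoid pathway, and it read 6.24 and 6.75 in F7033 and 7.78 and 8.05 in F2. Its arrays did not overlap, but it did not pass (-1.42 ± 0.65, adjusted p = 0.118). glu1, the beta-glucosidase gene that frees benzoxazinoids from their glucosides, read 5.04 and 3.67 in F7033 and 7.87 and 8.31 in F2. It was 13.3-fold lower (adjusted p = 0.0298), and the call did not survive the loss of any 1 of the 4 arrays (adjusted p = 0.062 to 0.159). Tryptophan uses the same indole precursor, and orp1, a tryptophan synthase beta subunit gene, read 5.95 and 6.66 in F7033 and 8.92 and 9.06 in F2 (6.41-fold lower, adjusted p = 0.000173).

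All 7 tested genes of pathogen and wound response were called, 5 higher and 2 lower in F7033. Both lower genes, rip2 and prp4, were under 4 on both F7033 arrays and so passed the brightness filter only through F2. These counts are therefore descriptive and are not set against the share over all genes. pr5, of the thaumatin-like family, read 8.36 and 8.09 in F7033 and 4.15 and 3.84 in F2, at least 18.7-fold higher (adjusted p = 3.43e-06). The other lines were brighter still for pr5, or level with F7033, with means of 8.41 to 10.49. The chitinase gene chn1 read 11.15 and 10.86 in F7033 and 10.17 and 9.97 in F2, 1.91-fold higher (adjusted p = 0.00539). A gene named mir3 was 1.8-fold higher by its brighter probe set (adjusted p = 0.00103), but its other probe set differed by -0.31 (adjusted p = 0.36). The cysteine protease gene mir2 was 1.39-fold higher (adjusted p = 0.0351) and lost the call without any 1 of the 4 arrays (adjusted p = 0.0545 to 0.217). rip2, which encodes a ribosome-inactivating protein, read 2.58 and 2.6 in F7033 and 5.25 and 5.04 in F2, at least 2.21-fold lower (adjusted p = 0.00148). prp4 was at least 1.68-fold lower (adjusted p = 0.0253), and it missed the threshold without F7033 replicate 2 (adjusted p = 0.156) and without F2 replicate 1 (adjusted p = 0.169).

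Of 8 tested oxylipin genes, lox1 was higher and opr7 lower, and aoc1 was called in both directions by different probe sets. The called share was 37.5%, against 41.2% over all tested genes. lox1, a lipoxygenase gene, read 13.35 and 13.21 in F7033 and 12.35 and 12.11 in F2, 2.08-fold higher (adjusted p = 0.00717). It missed the threshold without F7033 replicate 1 (adjusted p = 0.0526) and without F2 replicate 2 (adjusted p = 0.0574). opr7, an oxophytodienoate reductase gene that acts in jasmonate synthesis, read 8.06 and 8.41 in F7033 and 9.43 and 9.32 in F2, 2.2-fold lower (adjusted p = 0.00254). Its near copy opr8 differed by -0.04 (interval -0.27 to 0.2). The allene oxide cyclase gene aoc1 gave no settled direction. One of its probe sets read 8.26 and 8.24 in F7033 and 7.35 and 7.43 in F2, and the other 3.87 and 3.92 in F7033 and 8.54 and 8.56 in F2 (adjusted p = 5.7e-07).

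Glutathione transferases, enzymes that conjugate reactive compounds, also split, with 5 higher and 3 lower of 12 tested. Of the higher genes, gst18 and GST38 were under 4 on both F2 arrays and passed the brightness filter only through F7033. gst18 read 9.14 and 9.06 in F7033 and 2.5 and 2.53 in F2, at least 34.2-fold higher (adjusted p = 2.77e-05). gst19 read 10.02 and 10.05 in F7033 and 7.24 and 7.28 in F2, 6.83-fold higher (adjusted p = 5.11e-06). gst2 ran the other way, at 5.93 and 5.26 in F7033 and 8.93 and 8.71 in F2, 9.34-fold lower (adjusted p = 3.67e-05), and gst5 was 3.08-fold lower (adjusted p = 0.000121). The bright gst1, at 11.94 and 11.95 in F7033 and 12.14 and 12.08 in F2, did not pass (interval -0.57 to 0.23).

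**Figure D4:**
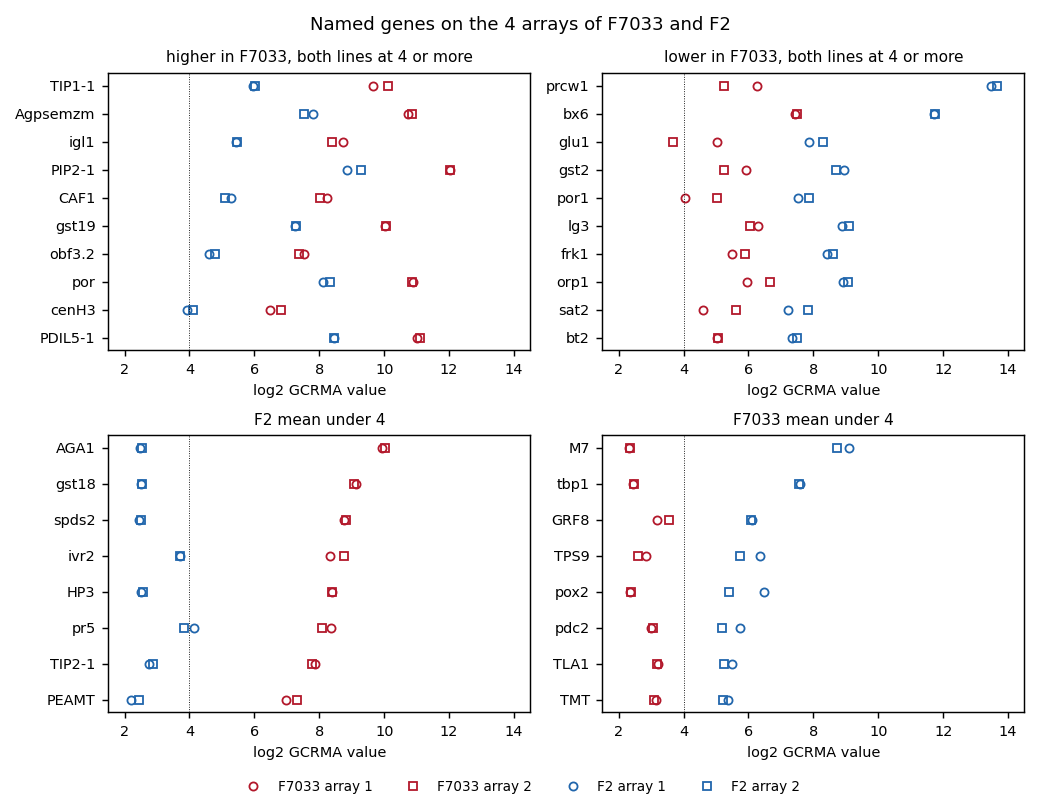
Log2 GCRMA values of the named genes on the 4 arrays, F7033 in red and F2 in blue, with circles for array 1 and squares for array 2. Upper panels hold the 10 largest increases and decreases with both lines at log2 4 or more, picked among called genes whose arrays do not overlap. Lower panels hold the 8 brightest called genes with F2 (left) or F7033 (right) under 4.

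Other genes among the largest differences came from several functions. spds2, a spermidine synthase gene, read 8.77 and 8.81 in F7033 and 2.45 and 2.52 in F2, at least 27.7-fold higher (adjusted p = 1.56e-08). The other lines had spds2 means of 9.14 to 9.41, so that F2 was the dim line. PEAMT, a phosphoethanolamine methyltransferase gene on the way to choline, read 6.97 and 7.32 in F7033 and 2.21 and 2.43 in F2, at least 8.86-fold higher (adjusted p = 3.31e-07). AGA1 and PEAMT shared a pattern, since in both the other 3 lines were under 4 on every array. PDIL5-1, a protein disulfide isomerase-like gene, read 11.01 and 11.09 in F7033 and 8.46 and 8.45 in F2, 6.07-fold higher (adjusted p = 9.25e-07). The bZIP gene obf3.2, an ocs element binding factor, was 6.74-fold higher (adjusted p = 5.41e-05) by its brighter probe set, and its other probe set did not pass (adjusted p = 0.0646). CAF1 was 7.71-fold higher (adjusted p = 2.08e-05) and por 6.28-fold higher (adjusted p = 4.56e-06).

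On the F2 side, M7 read 2.33 and 2.36 in F7033 and 9.09 and 8.74 in F2, at least 30.2-fold lower in F7033 (adjusted p = 3.35e-08). Its other probe set was at least 4.79-fold lower (adjusted p = 4.43e-07), and F2 was the only line with an M7 mean of 4 or more. GRF8 was at least 4.28-fold lower (adjusted p = 2.99e-05) and TPS9 at least 4.15-fold lower (adjusted p = 6.21e-06), again with F2 as the only line at 4 or more. The pyruvate decarboxylase gene pdc2, of the ethanol fermentation pathway, was at least 2.77-fold lower by its brighter probe set (adjusted p = 2.91e-05) and at least 1.21-fold by the other (adjusted p = 0.00877). TLA1 and TMT were at least 2.57-fold and 2.45-fold lower. por1 was 8.91-fold lower by 1 probe set (adjusted p = 0.000308) and did not pass by the other (adjusted p = 0.25). sat2 was 5.33-fold lower (adjusted p = 0.0343), and the call did not survive the loss of any 1 of the 4 arrays (adjusted p = 0.0582 to 0.189).

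**Figure D5:**
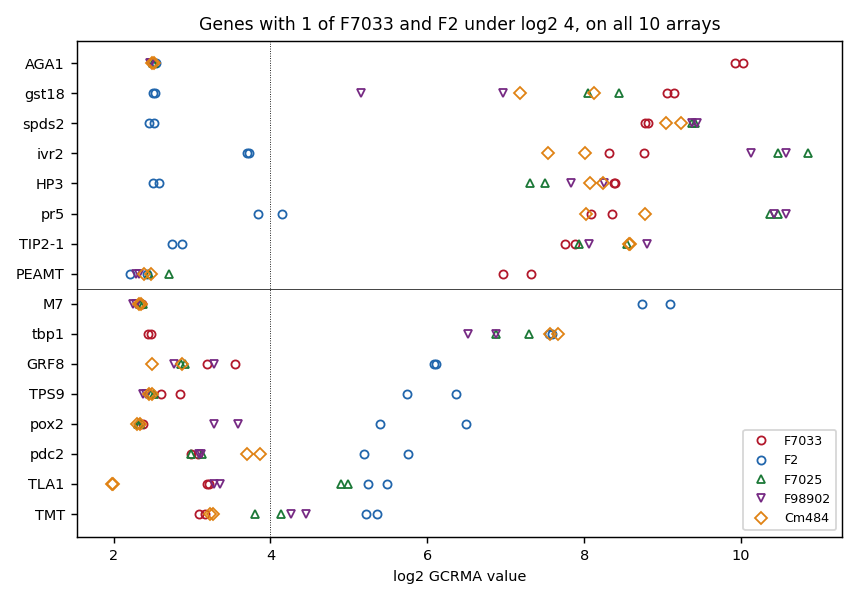
Log2 GCRMA values on all 10 arrays for the 8 brightest genes with F2 under 4 (upper block) and the 8 brightest with F7033 under 4 (lower block), 2 points for each line. AGA1 and PEAMT are bright in F7033 only and M7 in F2 only, while spds2, HP3 and TIP2-1 are dim in F2 only and tbp1 in F7033 only.

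In 31 called genes F7033 reached a mean of 4 and F2 did not, and in 17 the reverse held. Of the 31 genes, 14 reached 4 in all 3 other lines and 5 in none of them. Of the 17 genes, 4 reached 4 in all 3 other lines and 10 in none. Over all called genes, the means of all 3 other lines were nearer to F7033 than to F2 in 35 of the 160 higher and in 57 of the 161 lower genes. They were all nearer to F2 in 39 of the 160 and in 33 of the 161. These counts describe where the other lines lie and were not tested.

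Growth and chromatin genes gave a mixed picture. cenH3, the centromeric histone H3 gene, read 6.47 and 6.83 in F7033 and 3.93 and 4.12 in F2, 6.18-fold higher (adjusted p = 2.77e-05). In the other lines cenH3 had means of 4.1 to 4.42, near F2. his1 of the histone and chromatin list read 7.98 and 7.61 in F7033 and 6.14 and 6.19 in F2, 3.09-fold higher (adjusted p = 0.000271). Histone deacetylase genes split: hda101 was 1.95-fold higher (adjusted p = 0.000442) and hda102 2.18-fold lower (adjusted p = 0.000653). Of 15 tested histone and chromatin genes, 4 were higher and 2 lower, and HDA108 differed by -0.02 (interval -0.36 to 0.32). The called share of 40% was near the 41.2% over all tested genes.

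Of 9 tested cell cycle and replication genes, 2 were higher and 2 lower. The replication clamp genes split. This pair, like the starch and TATA-binding pairs, was picked out after its values were seen. pcna1 read 5.1 and 5.19 in F7033 and 6.67 and 6.59 in F2, 2.79-fold lower (adjusted p = 0.000302). pcna2 read 5.43 and 5.32 in F7033 and 2.35 and 2.52 in F2, at least 2.6-fold higher (adjusted p = 0.00303). The genes of the TATA-binding protein, the general transcription factor, formed another such pair. tbp1 read 2.44 and 2.47 in F7033 and 7.59 and 7.55 in F2, at least 11.9-fold lower (adjusted p = 3.72e-07), and tbp2 read 6.15 and 5.9 in F7033 and 4.33 and 2.7 in F2, at least 4.07-fold higher (adjusted p = 0.00242). The F2 arrays of tbp2 were far apart, and its log2 difference of 2.51 became 3.33 without F2 replicate 1 and 1.7 without F2 replicate 2, called in both. The origin recognition gene orc1 was 1.77-fold higher (adjusted p = 0.00255). The cyclin-dependent kinase gene cdc2 was 1.39-fold lower (adjusted p = 0.0417) and lost the call without F7033 replicate 1 (adjusted p = 0.242), F2 replicate 1 (adjusted p = 0.179) or F2 replicate 2 (adjusted p = 0.114). The cdc2 call was also lost under quantile normalization, with the medians of the arrays set equal, with a replicate block and without a filter on dim probe sets. Its other probe set did not pass (adjusted p = 0.262).

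Of 9 tested homeobox and MYB genes, 2 were higher and 2 lower. lg3, liguleless3, a knotted1-like homeobox gene, read 6.29 and 6.04 in F7033 and 8.87 and 9.11 in F2, 7.09-fold lower (-2.83 ± 0.16, adjusted p = 3.4e-06). kn1, knotted1, the founding gene of that family and a marker of meristem cells, read 9.76 and 9.75 in F7033 and 9.33 and 9.28 in F2, 1.37-fold higher (adjusted p = 0.00724). The kn1 call was lost without F2 replicate 2 (adjusted p = 0.0552). myb31, whose product represses lignin genes in maize, read 5.26 and 5.3 in F7033 and 6.73 and 6.42 in F2, 2.44-fold lower (adjusted p = 0.00221). Its relative myb42 differed by -0.69 and did not pass (adjusted p = 0.0643). For hox1a the increase was at least 2.38-fold (adjusted p = 1.58e-05). Among 11 tested MADS-box genes, 2 were higher and 2 lower: zap1 read 11.04 and 11.11 in F7033 and 10.48 and 10.33 in F2 (1.59-fold higher, adjusted p = 0.0038), and m31 was at least 1.13-fold higher (adjusted p = 0.000244). m15 and m20 were 1.34-fold and 1.31-fold lower, and both missed the threshold without any 1 of the 4 arrays (adjusted p = 0.0579 to 0.0962). The bright zmm19 did not pass (interval -0.42 to 0.07).

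Cytokinin genes were called in 8 of 16 cases, 3 higher and 5 lower. Of these, HP3 passed the brightness filter only through F7033 and crr1 only through F2, so the counts are descriptive. HP3, which encodes a phosphotransfer protein that relays the cytokinin signal, read 8.38 and 8.39 in F7033 and 2.5 and 2.58 in F2, at least 20.9-fold higher (adjusted p = 1.06e-07). F2 was the dim line, with HP3 means of 7.41 to 8.16 in the others. HP1, of the same group, was 1.63-fold higher (adjusted p = 0.00335). The response regulator gene RR5 read 5.58 and 5.44 in F7033 and 7.21 and 7.34 in F2, 3.4-fold lower (adjusted p = 0.00286), and crr1 was at least 2.36-fold lower (adjusted p = 0.00108). Cytokinin oxidase genes, whose products degrade the hormone, were lower too: cko3 by 3.09-fold (adjusted p = 0.00778) and cko2 by 2.73-fold (adjusted p = 0.0204). Without F7033 replicate 1 both missed the threshold (adjusted p = 0.0649 and 0.135), and cko2 also did without F2 replicate 1 (adjusted p = 0.12) or F2 replicate 2 (adjusted p = 0.0567). The phosphotransfer gene hp2 read 10.22 and 10.14 in F7033 and 10.05 and 9.98 in F2 and did not pass (interval -0.13 to 0.45).

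Among the other hormone genes, 1 of 10 was higher and 3 lower. ACO20, which encodes an oxidase of the last step of ethylene synthesis, read 9.87 and 9.93 in F7033 and 11.9 and 11.88 in F2, 3.97-fold lower (adjusted p = 0.000847). vp1, viviparous1, a seed regulator of abscisic acid response, read 2.34 and 2.36 in F7033 and 4.86 and 5.64 in F2, at least 2.38-fold lower (adjusted p = 3.78e-05). The ethylene receptor gene etr2 was 1.79-fold lower (adjusted p = 0.0359) and the gibberellin oxidase gene GA20 at least 1.81-fold higher (adjusted p = 0.0334). Both calls were lost without any 1 of the 4 arrays (adjusted p = 0.0554 to 0.18). The abscisic acid and ripening gene asr1, among the brightest on the arrays, read 13.88 and 13.75 in F7033 and 13.75 and 13.96 in F2 (interval -0.78 to 0.7).

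Among 9 tested heat shock and dehydration genes, 1 was higher and 3 were lower. The called share of 44.4% was near the 41.2% over all tested genes. hsp70-5 read 10.88 and 10.96 in F7033 and 12.21 and 12.1 in F2, 2.35-fold lower (-1.24 ± 0.09, adjusted p = 1.87e-05), and all 3 of its probe sets were lower. hsp70-4 was 1.97-fold lower (adjusted p = 0.00026). The dehydrin gene dhn2, of a family induced by drought, read 11.13 and 11.84 in F7033 and 12.78 and 12.77 in F2, 2.44-fold lower (adjusted p = 0.00511). In contrast, the small heat shock gene hsp18f was 2.95-fold higher (adjusted p = 0.00319), and hsp101 differed by -0.11 and did not pass (adjusted p = 0.831).

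Tubulin genes had small differences by their brightest probe sets, as did most of the called ribosomal protein genes. Of 12 tubulin genes, 4 were lower and none higher, with folds of 1.33 to 1.39 and a list median of -0.27. The called share was 33.3%. Over all tested genes 41.2% were called, 20.7% were lower and the median was -0.07. tub7 read 12.5 and 12.47 in F7033 and 12.89 and 12.94 in F2 (adjusted p = 0.0105). Of the dimmer probe sets of tub6, 1 was 1.93-fold lower (adjusted p = 0.0204) and the others did not pass. The dimmer probe set of tub5 was 1.54-fold lower (adjusted p = 0.0464). The count of lower tubulin genes was 2 without F2 replicate 1 and 0 without any other array of the 4, and 2 under quantile normalization. A fit to only the 4 arrays gave 4 lower and 2 higher tubulin genes, and array weights 5 lower and 2 higher. tua4 read 13.14 and 13.12 in F7033 and 12.92 and 13.13 in F2 and did not pass (interval -0.17 to 0.38).

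Of 19 ribosomal protein genes, 6 were lower and 0 higher, and the list median was -0.36. The called share of 31.6% was below the 41.2% over all tested genes, of which 20.7% were lower, with a median of -0.07. rpp2a-4, an acidic P2 protein gene of the large subunit, read 9.13 and 9.14 in F7033 and 10.97 and 11.08 in F2, 3.71-fold lower (adjusted p = 0.000147). rpl30 read 8.26 and 8.27 in F7033 and 9.65 and 9.57 in F2, 2.54-fold lower (adjusted p = 0.000849). The other lower genes, rpp1a, rps6-1, rps13 and rpp2a-2, had folds of 1.44 to 1.55. With 1 array left out, 2 or 3 genes of the list were lower, and with equal medians 5 were lower and 1 was higher. A fit to only the 4 arrays gave 13 lower and 1 higher, and array weights gave 10 lower and 1 higher. The 3 dimmer probe sets of rps6-1 did not pass (adjusted p = 0.112 to 0.462). rpp2b read 12.47 and 12.42 in F7033 and 12.53 and 12.57 in F2 and did not pass (interval -0.32 to 0.12).

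Where a gene had several probe sets, calls in opposite directions were few, but the sizes could lie far apart. Of 109 such genes, 23 had all probe sets called in 1 direction, 37 had some called in 1 direction, 46 had none called and 3 had calls in opposite directions. Among those with some called, PP2C differed by 0.01 by its brighter probe set and by 3.74 by the other (adjusted p = 1.78e-05). PLTP differed by -2.14 by its brighter probe set (adjusted p = 0.00814) and by 1.7 by the other (adjusted p = 0.0896). A gene-level value describes the brightest probe set only. The genes with opposite calls were aoc1, sir and a gene known here only as LOC542227. For sir, 1 probe set was 1.3-fold lower (adjusted p = 0.049) and another 2.35-fold higher (adjusted p = 0.0264). The lower call of sir was lost without any 1 of the 4 arrays (adjusted p = 0.083 to 0.225).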

How the data were processed

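The deposited table gives 1 log2 value per probe set and array, which the authors obtained with GCRMA, per the submitters' processing notes. This method corrects each probe's background from its sequence, scales the arrays together and summarises the probes of a probe set. It removes a shift shared by all genes and draws dim probe sets to a floor, so folds against a line under log2 4 are bounds. Its version is not given in the sources used here, and the log2 unit was inferred because all values lie between 1.35 and 14.6. How well the probes match the sequence of each line was not tested. The number of arrays limits the precision.

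The 113 AFFX and 66 RPTR control probe sets were left out. The annotation gives 1 gene for 1452 probe sets, several for 1 and none for 16102, and 1060 of the 1108 genes matched the RefSeq gene table. The brightest tested probe set over the 4 arrays stood for a gene.

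F7033 minus F2 was estimated by limma 3.58.1 (R 4.3.3, lmFit and eBayes with a trend) from all 10 arrays, with line as the only term. The lines share 1 estimate of the spread (5 residual and 3.29 prior degrees of freedom), which can come out too small for a gene that sits at the floor in most lines. P-values were adjusted by Benjamini-Hochberg over the 10559 kept probe sets. The code was tested on simulated data.

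Named were the 10 largest increases and 10 largest decreases with both means at 4 or more, an adjusted p under 0.05 and no overlap, the 8 brightest genes in each direction with 1 line under 4, and in each of 24 lists up to 4 members with the smallest adjusted p and 1 or 2 bright ones that did not pass. Further list members, tbp2, sir and LOC542227 were named after their values were seen. Members, lists and tests were chosen with earlier results of these data known. Alternatives changed the arrays fitted, the filter, the normalization, the trend, the array weights and the block, and left out each of the 4 arrays. Plots used matplotlib 3.10.9 in Python 3.11.15.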

Additional observations from a re-analysis of the deposited data

How the results depend on the processing

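Under 14 alternatives, no call of the 256 genes followed was turned, and none of the 4100 called probe sets changed sign in any of them. Of the 133 called genes followed, 87 kept their call in every alternative that tested them, as did 34 of the 36 genes with the largest differences, glu1 and sat2 being the exceptions. The calls of L-FNRI, CesA-3, PPCK1, zap1, HP1 and aoc1 were lost only without the 3 arrays of smallest RNA input. That fit keeps only replicate 1 of F2. When the 3 arrays with the smallest RNA input, which include F2 replicate 2, were left out, 2430 probe sets were called, 1216 of them lower in F7033, and 185 annotated genes. With 1 of the 4 arrays left out, the counts ran from 2573 to 2947 probe sets called, from 1276 to 1348 higher, from 1285 to 1599 lower, and from 196 to 218 annotated genes; fewer arrays leave fewer degrees of freedom. Fits to only the 4 arrays and fits with array weights called more, 5380 and 5593 probe sets. Quantile normalization called 4035, of which 49.6% were higher, and moved the difference by a median of 0.07. Setting the medians of the kept probe sets equal on all arrays, an alternative added after seeing the data, called 3981, of which 52.1% were higher, against 1803 of 4100 as reported, so the share of higher calls depends on the scaling by up to that much. The replicate block called 4104 probe sets. Deviations of F7033 and F2 arrays of the same replicate number correlated at 0.148. Over 10 pairs of lines the correlation ran from -0.368 to 0.403 and was over 0.1 in 5. Replicate 2 of F98902, F2 and Cm484 came from 20 µg of total RNA, and replicate 1 of these lines from 70 to 90 µg. Whether arrays of the same number share a batch cannot be told from these correlations.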
